A study of Mus musculus with 44 samples.

Results

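Foxf1, Foxc1, Snai2, Mesp1, Tbx6 and Evx1 are 6 transcription factor genes of the primitive streak and of the early mesoderm. They were followed here across mouse embryonic stem (ES) cells that carry Hex or a Hex fusion. All probe sets whose platform gene symbol is 1 of these 6 genes were taken, which gave 7 of the 12422 probe sets tested. Evx1 had 2 probe sets (98815_at and 98816_s_at), and the other 5 genes had 1 each. These were Foxf1 (93704_at), Foxc1 (160604_at), Snai2 (99552_at), Mesp1 (102795_at) and Tbx6 (93611_at).

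The primitive streak is the region of the gastrulating mouse embryo through which epiblast cells pass to become mesoderm and endoderm. Evx1 is a homeodomain factor of the posterior streak, and Mesp1 is a basic helix-loop-helix factor that marks the first mesoderm to leave the streak, including the precursors of the heart. Tbx6 is a T-box factor needed for the paraxial mesoderm, which forms the somites, and the forkhead factor Foxc1 acts in the same tissue. The forkhead factor Foxf1 belongs to the extraembryonic and lateral plate mesoderm. Snai2, also called Slug, is a zinc finger repressor of epithelial genes in cells that turn mesenchymal. ES cells stand for the epiblast before gastrulation and make these tissues when they differentiate.

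The cells were of the CGR8 ES line, clone cgr8.8 in every group, and RNA was hybridised to 44 Affymetrix MG-U74Av2 arrays, 1 sample each. Hex (gene symbol Hhex), a homeodomain transcription factor, or the fusion HexERTVP2 had been targeted to Rosa26, a locus active in most mouse cells. The name HexERTVP2 points to a fusion of Hex with a tamoxifen-responsive oestrogen receptor domain and a VP activation domain, which 4-hydroxytamoxifen (4-OHT) would switch on. Recombination is usually the step that turns such an insert on, although the labels do not say so here. Recombined Hex and unrecombined Hex cells had 4 arrays each. HexERTVP2 clone 1 had 4 arrays recombined with 4-OHT, 4 recombined without, 3 unrecombined with 4-OHT and 5 unrecombined without. HexERTVP2 clone 2 had 3 arrays in each of the same 4 states, and untargeted wild-type cells had 4. The fusion groups therefore rest on 2 clones, the number of clones behind the Hex groups is not given in the sources used here, and neither are the dose and time of 4-OHT. The labels do not say whether a group's arrays came from separate cultures, so p-values cover only the spread among these samples, which may be technical. A further 4 arrays carry titles whose words and array codes name different clones or treatments, and they entered no comparison.

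Values are log2 intensities, and differences are on the log2 scale with the tested state first. The arrays' medians lay between 6.73 and 6.81. Array 2 of unrecombined Hex stood apart from all others: its mean correlation with them was 0.869, against at least 0.981 for each of the other 39 assigned arrays. Counts of calls are therefore given with all 40 arrays and with the 39 left without it, and other values from both fits or with the fit named. All 12 ES cell markers looked up were measured and 11 of them lay above the array median in wild-type cells, with Pou5f1 at 11.48 and Nanog at 11.52. Of 8 primitive streak markers, of which Mesp1 and Evx1 are 2, 6 were measured and 0 lay above that median, at 4.25 to 6.36. A wider list of streak and mesoderm genes, described below, leaves the members out. Of its 45 measured genes 12 lay above that median, and the highest averaged 8.62. Hhex itself (98408_at) had group means of 6.11 to 6.29 and did not pass limma's F test over the groups (adjusted p = 0.784, 39 arrays). Whether this probe set detects the inserted sequence is not given in the sources used here, so it checks no label.

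The 7 probe sets held a narrow range over the 39 arrays. Foxf1 ranged from 4.42 to 5.11, a 1.61-fold span, and Foxc1 from 2.89 to 3.38, a 1.41-fold span. Snai2 ranged from 7.48 to 8.01 (1.44-fold) and Tbx6 from 6.96 to 7.40 (1.35-fold). Mesp1 ranged from 5.44 to 6.16 (1.64-fold), and the Evx1 probe sets from 6.25 to 6.84 (98815_at, 1.5-fold) and from 6.0 to 6.70 (98816_s_at, 1.62-fold). Group means spanned less, from 0.18 for Tbx6 to 0.39 for Foxf1. The spread within groups (residual SD) lay between 0.0846 for Foxc1 and 0.148 for Mesp1, against a median of 0.142 over all probe sets.

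Snai2 and Tbx6 lay above the median of their array on 40 of 40 arrays. Foxc1, Mesp1 and Evx1 (98816_s_at) did so on 0 of 40, while Foxf1 and Evx1 (98815_at) each did so on 1, which for Foxf1 was array 2 of unrecombined Hex. The 19 control sets for bacterial and yeast sequences had means from 3.47 to 6.43. Over the 39 arrays the means of Foxf1 (4.75), Mesp1 (5.73) and Evx1 98816_s_at (6.33) lay within that range. Foxc1 (3.10) lay below it, and Evx1 98815_at (6.47), Tbx6 (7.15) and Snai2 (7.68) lay above it. A probe set's brightness depends on its own probes, so these levels do not order the genes by amount of RNA, and no detection calls were used. In RNA from whole cultures, fewer cells of a type and less RNA per cell cannot be told apart.

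**Figure D1:**
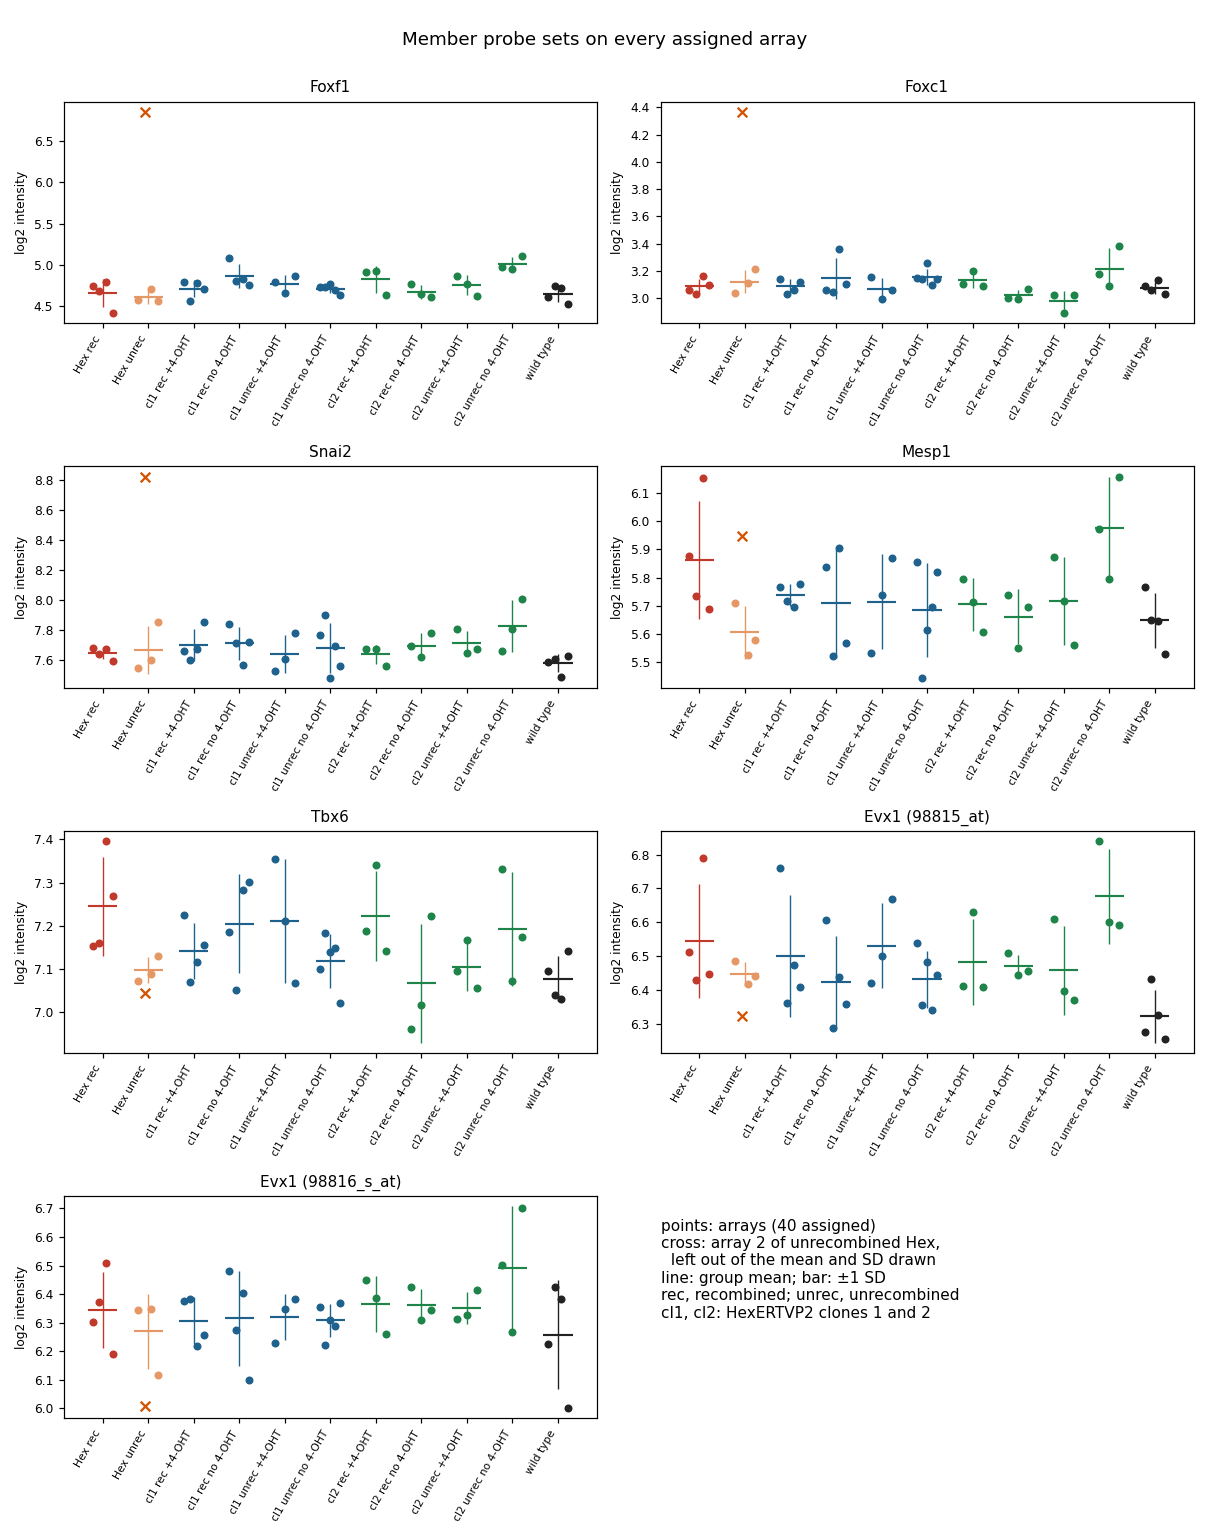
Log2 intensity of the 7 probe sets on the 40 assigned arrays, with group means and SDs drawn without array 2 of unrecombined Hex, which is shown as a cross. That array is the highest of all for Foxf1 (6.85), Foxc1 (4.37) and Snai2 (8.82), and unrecombined clone 2 without 4-OHT has the highest group mean for every probe set but Tbx6.

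Recombined against unrecombined Hex asks whether the factors changed once Hex was recombined. None of the 7 probe sets passed the threshold of 0.05 in limma with all 40 arrays, where 3.37% of all probe sets did, and none passed with 39, where 6.26% did. An unadjusted p below 0.05 was reached by 3 of the 7 with 40 arrays and by 1 with 39, beside 15.9% and 19.0% of all probe sets. Foxf1 measured 4.75, 4.68, 4.79 and 4.42 in recombined Hex cells, against 4.57, 6.85, 4.71 and 4.57 in unrecombined Hex cells. The 6.85 is array 2, and the other 3 unrecombined arrays lie within the recombined range. The difference was -0.51 (SE 0.25, adjusted p = 0.317) with all arrays and 0.04 (SE 0.09, adjusted p = 0.838) without that array.

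Foxc1 gave the same picture, with 3.06, 3.03, 3.16 and 3.09 in recombined cells, against 3.04, 4.37, 3.11 and 3.21 in unrecombined cells. Its difference was -0.35 (SE 0.15, adjusted p = 0.24) with all arrays and -0.03 (SE 0.07, adjusted p = 0.847) with 39. Snai2 measured 7.68, 7.64, 7.67 and 7.59 in recombined cells, against 7.55, 8.82, 7.60 and 7.85 in unrecombined cells. For all 3 genes the highest of the 8 values was array 2. The Snai2 difference was -0.31 (SE 0.15, adjusted p = 0.308) with all arrays and -0.02 (SE 0.09, adjusted p = 0.931) with 39.

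Array 2 lay 2.28 above the median of its 3 group mates for Foxf1, 1.26 for Foxc1 and 1.22 for Snai2. For Mesp1 it lay 0.37 above, for Tbx6 it was 0.04 below (-0.04), and the Evx1 probe sets gave -0.12 (98815_at) and -0.34 (98816_s_at). The whole array was shifted in this way: the median shift was 0.47 for probe sets with mean levels of 4 to 5 and -1.22 for those over 9. Among probe sets of like level, Foxf1 stood at the 97.8th percentile of that shift, Snai2 at the 95.6th and Foxc1 at the 90th. The log2 ratio of the 3′ to the 5′ β-actin control set, which grows as RNA degrades, was 2.24 on array 2 and ranged from 0.559 to 2.34 over the 40 arrays, so array 2 was not the highest. The part of RNA quality in these 3 values was not tested.

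**Figure D2:**
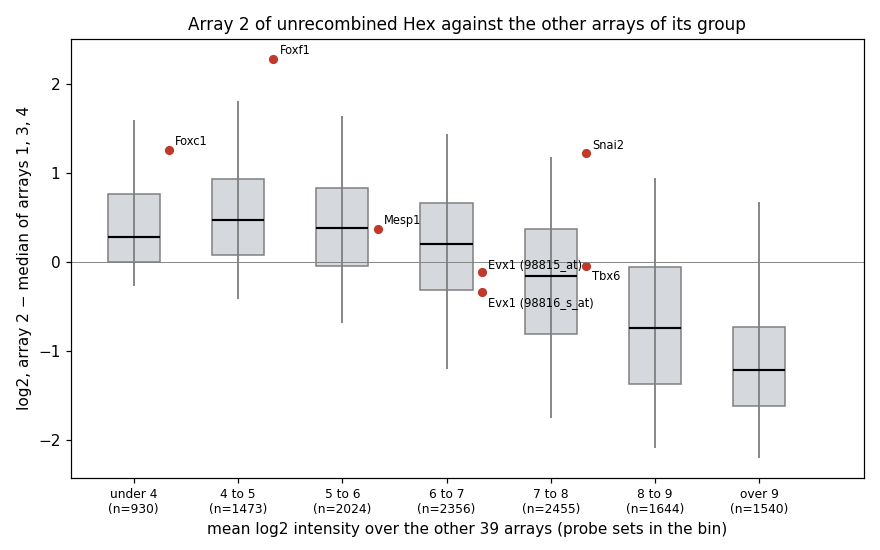
Difference of array 2 of unrecombined Hex from the median of arrays 1, 3 and 4 of its group (log2), for all probe sets in bins of mean level (boxes, quartiles with the median, whiskers from the 5th to the 95th percentile) and for the 7 probe sets (points). Dim probe sets read higher and bright ones lower on this array, and Foxf1 (2.28), Foxc1 (1.26) and Snai2 (1.22) lie in the upper part of their bins.

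For Tbx6, Mesp1 and Evx1 array 2 lay closer to the other arrays of its group. Tbx6 measured 7.15, 7.16, 7.40 and 7.27 in recombined Hex cells, against 7.07, 7.04, 7.09 and 7.13 in unrecombined Hex cells and 7.10, 7.04, 7.03 and 7.14 in wild-type cells. All 4 recombined arrays lay above all arrays of both other groups, as was so for 4.63% of all probe sets over unrecombined Hex (9.43% without array 2) and for 4.81% over wild type. The differences were small: 0.16 (SE 0.07, adjusted p = 0.28) over unrecombined Hex and 0.17 (SE 0.07, adjusted p = 0.563) over wild type, with all arrays. With 39 arrays they were 0.15 (SE 0.08, adjusted p = 0.308) and 0.17 (SE 0.07, adjusted p = 0.225).

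Mesp1 measured 5.87, 5.74, 6.15 and 5.69 in recombined Hex cells, against 5.71, 5.95, 5.53 and 5.58 in unrecombined Hex cells. The groups overlap, and the difference was 0.17 (SE 0.11, adjusted p = 0.454) with all arrays and 0.26 (SE 0.11, adjusted p = 0.191) with 39. For Evx1 the differences were 0.13 (98815_at) and 0.14 (98816_s_at) with all arrays, and 0.10 and 0.07 with 39, so that array 2 moves both Mesp1 and Evx1 98816_s_at. Their adjusted p-values lay above those of Mesp1 in both fits.

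Recombined Hex was also set against wild type, in which array 2 enters only through the spread shared by all groups. Again 0 of 7 probe sets passed, where 0.266% of all probe sets did with 40 arrays and 1.37% with 39. An unadjusted p below 0.05 was reached by 2 of the 7 with 40 arrays and by 3 with 39, beside 8.24% and 17.8% of all probe sets. Evx1 (98815_at) measured 6.51, 6.43, 6.79 and 6.45 in recombined Hex cells, against 6.28, 6.43, 6.33 and 6.25 in wild-type cells. The groups touch at 6.43, and the difference was 0.22 (SE 0.09, adjusted p = 0.549 with 40 arrays and 0.195 with 39). Mesp1 also gave 0.22 (adjusted p = 0.609 with 40 arrays and 0.275 with 39), and its wild-type arrays, at 5.77, 5.65, 5.65 and 5.53, overlapped the recombined ones. Foxf1, Foxc1 and Snai2 differed by 0.01, 0.01 and 0.07.

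Unrecombined Hex against wild type shows what array 2 does to the control line. With all arrays 0 of 7 passed (4.82% of all probe sets), with differences of 0.53 for Foxf1 (SE 0.25, adjusted p = 0.191), 0.36 for Foxc1 (adjusted p = 0.156) and 0.38 for Snai2 (adjusted p = 0.146). Without array 2 these were -0.03, 0.04 and 0.09, again with 0 of 7 passing (3.63% of all probe sets). An unadjusted p below 0.05 was reached by 3 of the 7 with 40 arrays and by 0 with 39, beside 25.6% and 11.3% of all probe sets.

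Recombined HexERTVP2 cells were compared with and without 4-OHT, the ligand of the fusion. Averaged over both clones, the 7 differences between 4-OHT and no 4-OHT lay between -0.04 and 0.05, and 0 of 7 passed, as did 0.0322% of all probe sets with 40 arrays and 0.145% with 39. No member had an unadjusted p below 0.05 in either fit, beside 1.54% of all probe sets with 40 arrays and 3.64% with 39. With 39 arrays the 95% confidence intervals of these differences lay within -0.17 and 0.20. Foxf1 measured 4.80, 4.57, 4.78 and 4.71 in recombined clone 1 with 4-OHT, against 5.08, 4.81, 4.83 and 4.76 without. The labels do not say that array numbers pair arrays of different groups. These clone 1 arrays were paired by number because their deviations correlated (0.31 to 0.82). Only 2 of 9 pairs of groups had every such correlation over 0.1, so the pairing was itself chosen from the values. By number, Foxf1 was lower with 4-OHT in 4 of 4 pairs, by 0.05 to 0.28 in size, and Evx1 (98815_at) was higher in 4 of 4, by 0.03 to 0.16. Each had an exact two-sided sign-flip p of 0.125, the smallest that 4 pairs allow, while the other 5 probe sets went 2 up and 2 down. In recombined clone 2 it measured 4.91, 4.93 and 4.64 with 4-OHT, against 4.78, 4.65 and 4.61 without. The clones thus moved in opposite directions, by -0.16 in clone 1 and 0.15 in clone 2, and the test of that difference (0.30, SE 0.13) had an adjusted p of 0.939 with 39 arrays. It passed for 0 of 7 probe sets and for 0% of all probe sets in both fits. An unadjusted p below 0.05 was reached by 0 of the 7 with 40 arrays (0.741% of all probe sets) and by 1, Foxf1, with 39 (2.21%). The β-actin ratio's response to 4-OHT also differed between the recombined clones, by 0.948, and its part was not tested.

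In unrecombined HexERTVP2 cells with 4-OHT less those without, differences ran from -0.16 for Foxc1 to 0.00 for Tbx6. Here 0 of 7 passed, as did 0% of all probe sets in both fits. Foxc1 had an unadjusted p of 0.003 with 39 arrays and an adjusted p of 0.984, and no other member had an unadjusted p below 0.05 in either fit. Of all probe sets 1.36% had one with 40 arrays and 4.36% with 39. Foxc1 measured 3.16, 2.99 and 3.06 in clone 1 with 4-OHT, against 3.14, 3.14, 3.26, 3.10 and 3.14 without. In clone 2 it measured 3.03, 2.89 and 3.02 with 4-OHT, against 3.18, 3.09 and 3.38 without. The arrays of clone 1 overlap and those of clone 2 do not.

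The difference between these responses, recombined less unrecombined, lay between 0.04 and 0.19 for the 7 probe sets. It passed for 0 of 7, and for 0.0161% of all probe sets with 40 arrays and 0.0644% with 39. With 39 arrays Foxc1 alone had an unadjusted p below 0.05 (0.19, SE 0.07, adjusted p = 0.715), beside 6.41% of all probe sets.

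Recombination itself was read from recombined against unrecombined HexERTVP2 cells. Without 4-OHT the 7 differences lay between -0.15 (Mesp1) and -0.02 (Tbx6), and 0 of 7 passed, as did 0.467% of all probe sets with 40 arrays and 3.38% with 39. With 4-OHT they lay between -0.01 and 0.09 (Foxc1), and 0 of 7 passed, as did 0.185% and 0.523%. An unadjusted p below 0.05 was reached by Foxc1 without 4-OHT in the fit of 39 arrays (-0.10, SE 0.05, adjusted p = 0.25), and by no other member in either comparison. Of all probe sets 18.5% had one without 4-OHT in that fit. Clone 2 less clone 1, over the 4 states, gave -0.03 to 0.08 and 0 of 7, where 1.22% of all probe sets passed with 40 arrays and 3.25% with 39. None of the 7 had an unadjusted p below 0.05 there, beside 7.32% of all probe sets with 40 arrays and 12.5% with 39.

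Across the 11 comparisons, each with 7 probe sets, 0 of 77 tests passed in either fit. An unadjusted p below 0.05 was reached in 9 of them (11.7%) with 40 arrays and in 11 (14.3%) with 39. Over all probe sets that share ran, by comparison, from 0.741% to 25.6% with 40 arrays and from 2.21% to 26.7% with 39. With 39 arrays the largest difference was 0.30 in size. Of the 77 confidence intervals, 76 lay within 0.5 of 0 on either side, a 1.41-fold change in intensity. With 40 arrays 64 did so, and the outermost bound was 1.09. The comparisons share arrays, so these tests are not independent.

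**Figure D3:**
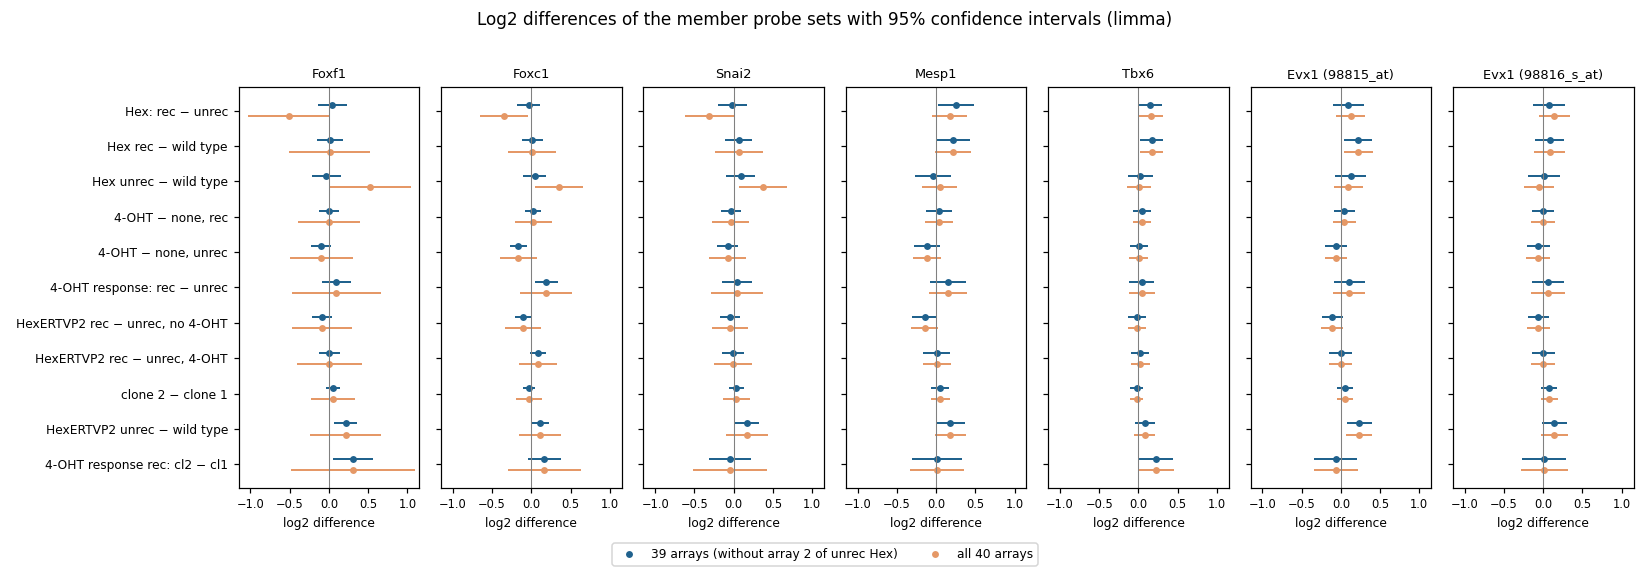
Log2 differences of the 7 probe sets in the 11 comparisons, with 95% confidence intervals from limma, for 39 arrays (blue) and all 40 (orange). Intervals of Foxf1, Foxc1 and Snai2 are wider with array 2 included, and no difference with 39 arrays exceeds 0.30.

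With 39 arrays the lowest adjusted p-value of the 11 comparisons came from unrecombined HexERTVP2 cells without 4-OHT set against wild type, over both clones. With 40 arrays it was that of Snai2 in unrecombined Hex less wild type, given above. In the fusion comparison 0 of 7 passed, against 1.46% of all probe sets with 40 arrays and 8.13% with 39. An unadjusted p below 0.05 was reached by 1 of the 7 with 40 arrays (14.9% of all probe sets) and by 3 with 39 (26.7%). Evx1 (98815_at) was at 0.23 (SE 0.08, adjusted p = 0.147 with 40 arrays and 0.057 with 39). Foxf1 was at 0.21 (SE 0.07, adjusted p = 0.0624) with 39 arrays. All 7 differences were positive, from 0.08 to 0.23 with a median of 0.17, beside a median of 0.04 over all probe sets.

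Since the group means had shown unrecombined clone 2 without 4-OHT to be the highest group for 6 of the 7 probe sets, each clone was then taken on its own. This choice followed the values, and the counts below are descriptions of that choice. Evx1 (98815_at) measured 6.84, 6.60 and 6.59 in unrecombined clone 2 without 4-OHT, against 6.28, 6.43, 6.33 and 6.25 in wild-type cells, with no overlap. The difference was 0.36 (SE 0.10), with an adjusted p of 0.0258 over 40 arrays and of 0.00868 over 39. Its second probe set, 98816_s_at, measured 6.50, 6.27 and 6.70 in clone 2, against 6.22, 6.43, 6.38 and 6.0 in wild type. These arrays overlap, and the difference was 0.23 (SE 0.10, adjusted p = 0.0795 with 39 arrays), so that only 1 of the 2 Evx1 probe sets passed.

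Foxf1 measured 4.98, 4.96 and 5.11 in clone 2, against 4.61, 4.74, 4.72 and 4.53 in wild-type cells. The difference of 0.36 had an SE of 0.27 and an adjusted p of 0.398 with 40 arrays, and an SE of 0.09 and an adjusted p of 0.00482 with 39, because array 2 of unrecombined Hex enters the shared spread. Mesp1 measured 5.97, 5.80 and 6.16 in clone 2, against 5.77, 5.65, 5.65 and 5.53 in wild-type cells (0.33, SE 0.11, adjusted p = 0.0313 with 39 arrays and 0.084 with 40). Snai2 measured 7.66, 7.81 and 8.01 in clone 2, against 7.59, 7.61, 7.49 and 7.63 in wild-type cells (0.24, SE 0.09, adjusted p = 0.0467 with 39 arrays and 0.333 with 40). For these 3 genes too, every clone 2 array lay above every wild-type array. Foxc1 (0.14) and Tbx6 (0.12) passed in neither fit.

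In all, 1 of 7 probe sets was called with 40 arrays, and it was higher. Of all probe sets 6.79% were called, and 3.28% were called higher. With 39 arrays 4 of 7 were called, all higher, where 25.4% of all probe sets were called and 13.8% were called higher. Arrays of clone 2 lay above all wild-type arrays, as for 4 of the 7, in 16.3% of all probe sets. The median difference over all probe sets varied with mean level. It was 0.04 under 4 (where Foxc1 lies), 0.12 at 4 to 5 (Foxf1) and 0.14 at 5 to 6 (Mesp1). It was 0.13 at 6 to 7 (Evx1), 0.05 at 7 to 8 (Snai2 and Tbx6), -0.09 at 8 to 9 and -0.17 over 9. The β-actin ratio of the 3 clone 2 arrays was 1.48, 0.561 and 0.559, against 0.846 to 1.55 in wild-type cells. The part of RNA quality was not tested beyond the covariate fit, in which Evx1 (98815_at) and Mesp1 passed with 40 arrays. Markers of cell state were also read in the same comparison. Of 12 ES cell markers 0 were called higher and 3 lower with 40 arrays (1 and 5 with 39). The 3 were Dppa3 (-1.50), Klf4 (-0.94) and Nanog (-0.86). These 12 markers had a median level of 10.45 in wild-type cells. Of all probe sets with mean levels over 9, 4.81% were called higher and 21.5% lower with 39 arrays. The mean level of all 12 ES cell markers was 9.72 to 9.80 on the clone 2 arrays, against 10.06 to 10.12 on wild-type arrays. Of 12 primitive endoderm markers, genes of an extraembryonic lineage, 3 were called higher and 0 lower (5 and 1 with 39). The 3 were Col4a1 (1.37), Lama1 (0.57) and Sox17 (0.43). These 12 had a median level of 6.96 in wild-type cells. At mean levels of 6 to 7, 19.5% of all probe sets were called higher and 9.47% lower with 39 arrays. The mean level of all 12 endoderm markers was 7.25 to 7.38 on the clone 2 arrays, against 6.98 to 7.06 on wild-type arrays. Neither pair of ranges overlaps, and the part of these markers in the members' values was not tested. Of 12 fibroblast markers 0 were called in either fit. Of 8 trophoblast markers 0 were called higher and 1 lower with 40 arrays (1 and 1 with 39), and Tfap2c was lower (-0.78) in both.

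Leaving out clone 2 array 1 or 3, or wild-type array 1 or 4, ended the call of Evx1 in the 40-array fit (adjusted p = 0.132, 0.058, 0.0633 and 0.0814).

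**Figure D4:**
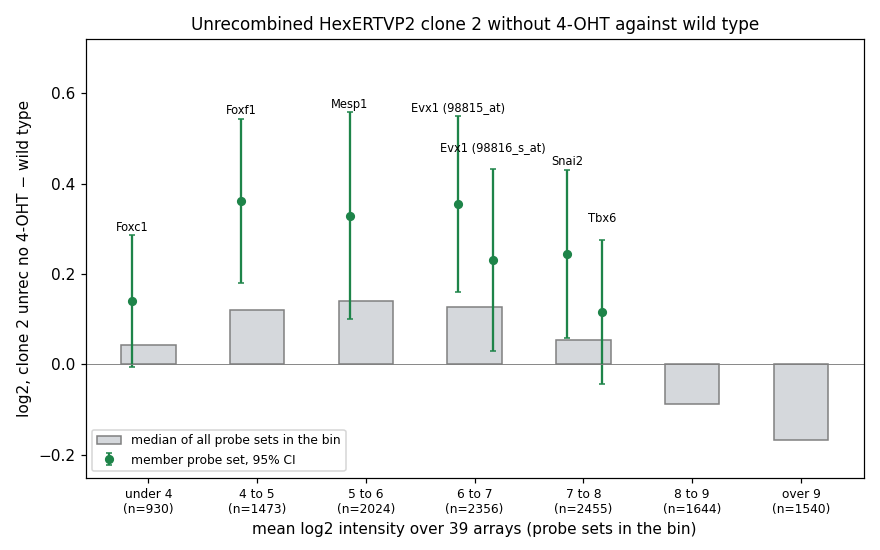
Unrecombined HexERTVP2 clone 2 without 4-OHT minus wild type (log2), as medians of all probe sets in bins of mean level (bars) and as the 7 probe sets with 95% confidence intervals from the fit of 39 arrays (points). The points range from 0.12 for Tbx6 to 0.36 for Foxf1 and Evx1 (98815_at), and the bin medians run from 0.14 to -0.17.

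Differences were smaller in clone 1. Unrecombined clone 1 without 4-OHT less wild type gave 0.04 to 0.11 for the 7 probe sets with 39 arrays, all at an adjusted p of 0.945 or more, where 1.14% of all probe sets passed (0.298% with 40 arrays). Foxf1 was at 4.73, 4.74, 4.77, 4.70 and 4.64 in clone 1, and Evx1 (98815_at) at 6.54, 6.35, 6.48, 6.34 and 6.44. Both ranges overlap wild type. The difference between the unrecombined clones was not tested on its own.

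The same 3 arrays of unrecombined clone 2 are the controls of 2 further comparisons, which are given side by side with the one above. Recombined less unrecombined clone 2 without 4-OHT was -0.33 for Foxf1 (SE 0.10, adjusted p = 0.0399 with 39 arrays and 0.689 with 40), -0.32 for Mesp1, -0.21 for Evx1 (98815_at) and -0.20 for Foxc1. Recombined arrays lay below all unrecombined ones for these 4 probe sets, as for 9.20% of all probe sets. Foxf1 alone was called, in the fit of 39 arrays, where 4.17% of all probe sets were called and 1.01% were called lower. With 40 arrays 0 of 7 were called, as were 0.322% of all probe sets, 0.0564% lower. With 4-OHT less without in unrecombined clone 2 was -0.26 for Foxf1 and -0.24 for Foxc1, both without overlap (9.03% of all probe sets), and 0 of 7 passed (0% with 40 arrays and 0.233% with 39). The lowest adjusted p there was 0.123, for Foxc1. In recombined clone 2, Foxc1 measured 3.10, 3.20 and 3.09 with 4-OHT, against 3.0, 2.99 and 3.07 without. Those arrays do not overlap, as for 2.47% of all probe sets, and the difference of 0.11 did not pass (adjusted p = 1).

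The F test asked whether a probe set differed anywhere among the 11 groups. With 40 arrays 0 of 7 passed, against 5.17% of all probe sets, with adjusted p-values from 0.581 (Evx1, 98815_at) to 0.967 (Foxf1). With 39 arrays Foxf1 passed at 0.0482 and the other 6 did not (0.339 to 0.862), against 12.9% of all probe sets. Foxf1 averaged 5.01 ± 0.08 in unrecombined clone 2 without 4-OHT (SD, n = 3), the highest group. Recombined clone 1 without 4-OHT followed at 4.87 ± 0.14 (n = 4), and wild type was at 4.65 ± 0.10 (n = 4). The lowest was unrecombined Hex without array 2, at 4.62 ± 0.08 (n = 3).

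For all 7 probe sets, 0 of the 10 neighbouring pairs in the order of group means were free of overlap between their arrays. Unrecombined clone 2 without 4-OHT came first for Foxf1, Foxc1, Snai2, Mesp1 and both Evx1 probe sets, and recombined Hex came first for Tbx6. The last place went to wild type for Snai2 and both Evx1 probe sets, to unrecombined Hex for Foxf1 and Mesp1, to unrecombined clone 2 with 4-OHT for Foxc1 and to recombined clone 2 without 4-OHT for Tbx6.

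Within groups, some of the probe sets followed the β-actin ratio. Deviations from the group mean over 39 arrays were correlated with those of the ratio for each of the 7 probe sets, with permutation tests adjusted over the 7. For Tbx6 Pearson's r was 0.68 (permutation p = 1e-05, the smallest the draws can give, adjusted 7e-05) and Spearman's rho 0.65 (permutation p = 2e-05, adjusted 0.00014). Without the 2 arrays farthest from the median ratio, r was 0.63. For Evx1 (98815_at) r was 0.54 (permutation p = 0.00041, adjusted 0.00143) and rho 0.50 (adjusted 0.00483), with 0.54 without the farthest 2.

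Foxc1 gave r = 0.46 (permutation p = 0.00343, adjusted 0.008) and rho 0.41 (adjusted 0.0232), and 0.30 without the farthest 2. Mesp1 gave r = 0.37 (adjusted permutation p = 0.0378), a rho of 0.30 that did not pass (adjusted 0.107), and 0.24 without the farthest 2. Without those 2 arrays neither relation passed (adjusted permutation p = 0.137 for Foxc1 and 0.213 for Mesp1), and both were weaker but still positive. Tbx6 (0.00056) and Evx1 98815_at (0.00245) passed without them. Foxf1 (0.27), Snai2 (-0.09) and Evx1 (98816_s_at, 0.04) did not pass. The β-actin ratio was 0.338 lower (-0.338) in recombined than in unrecombined Hex with 40 arrays and -0.086 with 39. With the ratio as a covariate the Tbx6 difference between recombined and unrecombined Hex was 0.20 (SE 0.06, adjusted p = 0.0599) with 40 arrays and 0.16 (adjusted p = 0.0948) with 39.

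**Figure D5:**
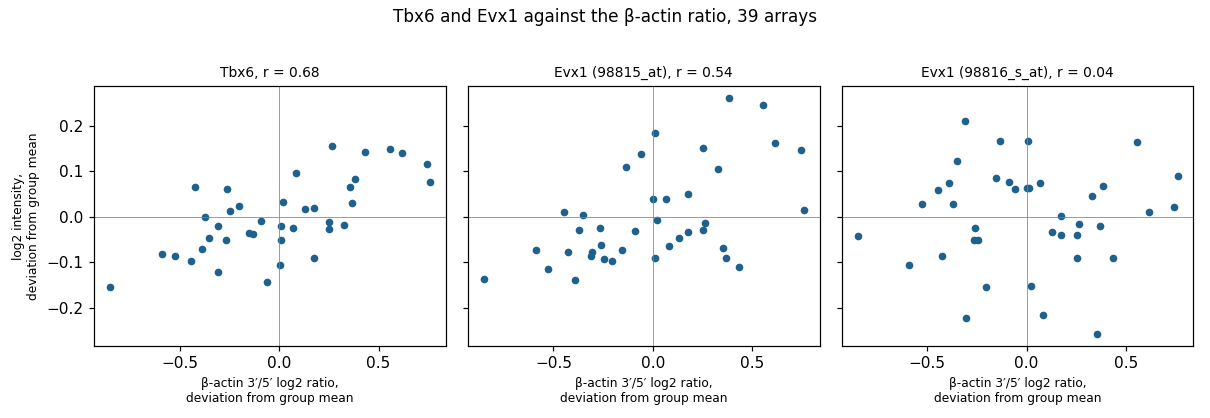
Deviation of log2 intensity from the group mean against that of the β-actin 3′/5′ log2 ratio, for Tbx6 and both Evx1 probe sets on 39 arrays. Points rise to the right for Tbx6 (r = 0.68) and Evx1 98815_at (r = 0.54) and show no slope for Evx1 98816_s_at (r = 0.04).

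The 2 Evx1 probe sets, which read the same gene, correlated at 0.43 within groups and at 0.84 over the 11 group means of 39 arrays. Evx1 (98815_at) and Mesp1 correlated as closely over group means (0.84) and at 0.58 within groups. All these points share arrays, and the values are descriptions.

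The genes whose 11 group means were most like those of a member were looked up among all probe sets with 1 symbol. For Foxf1 they were Il4ra, Slc34a2 and Fgf2 (r = 0.97, 0.97 and 0.96, and 0.94, 0.87 and 0.76 without array 2). For Foxc1 they were Klk1b8, Ank1 and Ndufaf4 (0.97, 0.95 and 0.95, and 0.74, 0.70 and 0.75 without it), and for Snai2 they were Tat, Mllt10 and Ly6g (0.98, 0.96 and 0.96, and 0.93, 0.83 and 0.88 without it). For Foxc1 all 3 values dropped to 0.75 or below without array 2. Mesp1 was most like Bcl2, Cd96 and Hsd11b1 (0.96, 0.95 and 0.95, and 0.97, 0.96 and 0.94 without it). Tbx6 was most like Cacna1b, Stk40 and Col10a1 (0.96, 0.92 and 0.92, and 0.96, 0.90 and 0.90 without it). Evx1 98815_at was most like Ighv1-54, Mtcp1 and Rxra (0.99, 0.97 and 0.97, and 0.98, 0.94 and 0.89 without it), and 98816_s_at most like Krtap9-1, Dda1 and Tnnc2 (0.95 each, and 0.93, 0.95 and 0.80 without it). Ranked without array 2, the first 3 kept 2 of these genes for Mesp1, 1 each for Foxf1, Snai2, Tbx6 and Evx1 98815_at, and 0 for Foxc1 and Evx1 98816_s_at. None of these 21 genes is on the list of streak and mesoderm genes described next, and each r is the highest of many over 11 points.

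Other genes of the streak and of mesoderm were read from a list of 60, of which 45 were measured and T and Mixl1 were not. In recombined less unrecombined Hex 1 was called higher and 1 lower with 40 arrays, and the list's median was -0.04 beside 0.01 over all probe sets. The gene called lower was Dll1, a Notch ligand of the presomitic mesoderm. It measured 6.93, 6.98, 6.87 and 6.94 in recombined Hex cells, against 7.37, 7.14, 7.41 and 7.40 in unrecombined Hex cells and 6.93, 6.72, 6.80 and 6.80 in wild-type cells. Recombined Hex and wild type overlap and unrecombined Hex lies above both. The difference from unrecombined Hex was -0.40 (SE 0.07, adjusted p = 0.00036), and unrecombined Hex less wild type was 0.52. A second Dll1 probe set, 161634_r_at, had the opposite sign in the first of these comparisons and did not pass. It was at 0.24 (adjusted p = 0.205) with 40 arrays and at 0.32 (adjusted p = 0.0524) with 39, where the first, 92931_at, was at -0.46. All other Dll1 values here and below are from 92931_at alone.

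The gene called higher was Tbx3, a T-box factor that ES cells also use. It measured 5.17, 5.26, 5.23 and 5.27 in recombined Hex cells, against 5.08, 5.07, 4.73 and 4.78 in unrecombined Hex cells (0.32, SE 0.09, adjusted p = 0.0398), with no overlap. Without array 2, Nodal, the ligand that induces the streak, was also called lower (-0.89, adjusted p = 0.000217), and it was called lower than in wild type as well (-0.55, adjusted p = 0.0427). With 40 arrays its difference from unrecombined Hex was -0.62 (adjusted p = 0.0502). Of the 45 genes, 2 were thus called in recombined less unrecombined Hex with 40 arrays and 3 with 39. Of all probe sets 3.37% and 6.26% were called there.

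In recombined Hex less wild type 0 of the 45 were called with 40 arrays, beside 0.266% of all probe sets (1.37% with 39). Lhx1 and Nodal had the lowest p-values there (0.31 and -0.55). In unrecombined Hex less wild type Dll1 was the 1 called in either fit, higher, beside 4.82% of all probe sets with 40 arrays and 3.63% with 39. In 4-OHT less none in recombined fusion cells 0 were called with 40 arrays, with the lowest p-values at Tdgf1, the Nodal co-receptor Cripto (-0.39), and Dll1 (0.21). With 39 arrays Dll1 was called there (adjusted p = 0.0405), beside 0.145% of all probe sets. In unrecombined fusion cells 4-OHT gave 0 calls in both fits, with Tcf21 (-0.12) and Frzb (-0.11) at the lowest p-values, and the difference between these responses also gave 0, with Tdgf1 (-0.39) and Dll1 (0.23) lowest.

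Recombination of the fusion without 4-OHT gave 0 calls with 40 arrays and 1 with 39, Dll1 (-0.18, adjusted p = 0.0193). Of all probe sets 0.467% and 3.38% were called there. With 4-OHT it gave 0 in both fits, with Tdgf1 (-0.29) and Nodal (0.41) at the lowest p-values. Clone 2 less clone 1 gave 0 with 40 arrays (1.22% of all probe sets) and 1 with 39 (3.25%), the growth factor gene Bmp4 (-0.17, adjusted p = 0.0265). Set between the clones, the response to 4-OHT gave 0 in both fits, with Snai1 (0.19) and Mesp2 (0.22) lowest in p with 40 arrays.

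Unrecombined fusion cells less wild type gave 1 call with 40 arrays, Dll1 (0.24, adjusted p = 0.0261), beside 1.46% of all probe sets. With 39 arrays 6 were called, beside 8.13%. Those higher were Lhx1, Twist2, Dll1, Lfng and Tbx2, and Bmp4 was lower. Tbx2 has 3 probe sets on the array and Bmp4 has 2. Each was read from its brightest one throughout (92705_at and 93455_s_at), and the others are not given for these comparisons. For clone 2 alone 3 were called higher and 0 lower with 40 arrays: Lhx1 (0.43), Dll1 (0.30) and Tbx2 (0.30), that is 3 of 45 beside the 3.28% of all probe sets called higher. With 39 arrays 10 were called higher and 1 lower, beside the 13.8% called higher and 25.4% called in all. These were Lhx1, Lfng (0.33), Cdx1 (0.32), Nkx2-5 (0.30), Dll1, Tbx2, Twist2 (0.28), Frzb (0.27), Pax3 (0.26) and Tcf21 (0.26), with Bmp4 lower (-0.38). The median of the 45 was 0.22, beside 0.07 over all probe sets and the members' own differences of 0.12 to 0.36. The list's median level in wild-type cells was 5.88, and all probe sets with mean levels of 5 to 6 had a median difference of 0.14.

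Family relatives of the members were read over the same groups. Snai1, the other Snail factor measured, averaged 5.99 in wild-type cells and its group means spanned 0.22 with 39 arrays. Mesp2, which acts in somite segmentation, averaged 7.43 and spanned 0.23. Foxf2 (3.47, span 0.13), Foxc2 (5.48, span 0.24) and Evx2 (7.29, span 0.19) had like spans, and none of these 5 passed the F test with 39 arrays. Other relatives varied more. Of the 19 Fox genes measured 4 passed it, with the widest span at Foxp1 (0.81), and of the 3 Mesp relatives 0 passed, with the widest span at Tcf15 (0.62). Of the T-box genes measured, 0 of 5 passed it. Eomes, a T-box factor of the streak, averaged 5.57 with a span of 0.23, and Tbx3 had the widest span among the 5, at 0.48.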

How the data were processed

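The deposited values are intensities on a linear scale, 1 per probe set and array, and the submitters' processing notes name RMA (background correction, quantile normalisation and probe summary) without a version. Which arrays were normalised together is not given in the sources used here. The deposited intensities were converted to log2, with no filter, and the 66 Affymetrix control sets were left out of 12488. Intensities carry no counts, so the number of arrays limits the precision.

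Symbols were taken from the platform annotation, which gives 1 for 10833 probe sets, several for 396 and none for 1193. The Entrez IDs of the 7 member probe sets matched RefSeq, used for names only. The files name no genome build, so no coordinates or sequences are given.

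Groups came from the titles. The 40 assigned arrays in 11 groups were fitted together with lmFit and eBayes of limma 3.58.1 (R 4.3.3; 29 residual degrees of freedom). P-values were adjusted by Benjamini-Hochberg over the 12422 probe sets of each comparison, with a threshold of 0.05. All tests were two-sided, and the relation to the β-actin ratio used 100000 permutations. The fits were tested on simulated data. Errors of differences are standard errors and those of group means SDs. The members and the gene lists were chosen with earlier results of these data known. Each list gene was read from 1 probe set. Named were all member probe sets, the 3 most like genes of each, and, from the streak list, every called gene or otherwise the lowest 2 by p. Replicate numbers come from the titles. Of 9 pairs of groups with at least 3 shared numbers, 2 had every correlation of deviations over 0.1, both of clone 1: recombined with and without 4-OHT (0.31 to 0.82), and recombined and unrecombined without 4-OHT (0.34 to 0.60). These arrays were treated as paired in an added fit. The comparisons of single clones were added after the group means were seen. Figures were drawn with matplotlib 3.10.9 (Python 3.11.15).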

Additional observations from a re-analysis of the deposited data

Results flagged for a closer look

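Of 42 sets of 4 or more arrays, each 1 probe set in 1 group, 3 had an array that stood apart. Its gap to the nearest neighbour, as a share of the set's range, passed a strict limit, which is lower for sets of more arrays. At that limit chance alone gives about 1 such set in 20. Other sets, such as Snai2 in unrecombined Hex, had a gap over most of their range and stayed below it. The shares of the 3, in the order given next, were 0.936, 0.870 and 0.717. Foxf1 was at 6.85 on array 2 of unrecombined Hex, against 4.57 to 4.71 on the other 3. Foxc1 was at 4.37 on the same array, against 3.04 to 3.21. Foxc1 was also at 3.26 on array 3 of unrecombined clone 1 without 4-OHT, against 3.10 to 3.14 on the other 4.

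Tbx6 was at 7.44 on 1 of the 4 arrays that entered no comparison, whose title words name clone 2 and whose code names clone 1, both unrecombined with 4-OHT. This is above the highest of the 39 assigned arrays without array 2 of unrecombined Hex (7.40).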

How the results depend on the processing

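Alternatives were median centring, quantile normalisation, leaving out the dimmest probe sets by mean level (which removes Foxf1 and Foxc1, so that they have no value there), a trended robust eBayes, array weights, only the compared arrays, the replicate number as a block (over all arrays, and, added later, within clone 1), a covariate for the β-actin ratio, the same without array 2 of unrecombined Hex, and each array left out in turn. A value was counted as reversed only if its sign turned and it was called in the main or the alternative fit. In the 11 comparisons 0 of 3772 member values reversed in this sense, while 118 uncalled values turned sign. There 8 passed the threshold only under an alternative, and 23 uncalled values moved by more than the spread within groups. Of these 23, 6 moved by leaving out array 2, 8 with the covariate and without array 2 together, 7 with array weights and 2 with the covariate. In the 3 clone 2 comparisons, added after the group means were seen, 0 of 1023 reversed, 17 passed only under an alternative and 5 no longer passed.

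Counts of called members, 0 of 7 unless given, changed as follows. The F test gave 1 with array weights, 2 with the covariate and without array 2, and 0 to 1 over left-out arrays. Unrecombined Hex less wild type gave 0 to 2 over left-out arrays, with 2 (Foxc1 and Snai2) when array 1 or 3 of unrecombined Hex was left out and array 2 weighed more. Unrecombined fusion cells less wild type gave 1 with array weights, 1 with the covariate and 2 with the covariate and without array 2. For unrecombined clone 2 less wild type the count of 1 became 2 with array weights, 2 with the covariate, 6 with the covariate and without array 2, and 0 to 4 over left-out arrays. Evx1 (98815_at) missed the threshold there with only the compared arrays (adjusted p = 0.0544), and Foxf1 passed (0.0439). Recombined less unrecombined clone 2 gave 3 with the covariate and without array 2, and 0 to 1 over left-out arrays. With 4-OHT less none in unrecombined clone 2 gave 1 with the covariate and without array 2. The cause was not tested. Counts in the other 9 comparisons stayed at 0.

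The replicate block left every member count as it was (0, and 1 for unrecombined clone 2 less wild type), while all probe sets called in recombined less unrecombined Hex numbered 488 with it and 419 without. The block within clone 1 also gave 0 of 7 for 4-OHT less none in recombined fusion cells, for its difference between clones and for recombination without 4-OHT, with 40 and with 39 arrays.

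The limits are the 3 to 5 arrays a group, the 2 clones of the fusion, a control group of which 1 array stands apart, and culture and normalisation batches that are not given.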

Other observations

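The 4 arrays that entered no comparison gave the following values, named by their array codes. RHETVPcl1+4-OHT_3 had Foxf1 at 5.01, Foxc1 at 3.31, Snai2 at 7.82 and Mesp1 at 5.80. RHETVPcl2+4-OHT_1 had Foxf1 at 4.69, Foxc1 at 3.12, Snai2 at 7.72 and Mesp1 at 5.84. RRHETVPcl2_1 had Foxf1 at 5.01, Foxc1 at 3.30, Snai2 at 7.67 and Mesp1 at 5.91, and RRHETVPcl2+4-OHT_1 had 4.75, 3.10, 7.63 and 5.82 for the same genes. These values lie within the range of the 39 assigned arrays.

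In the same order of arrays Tbx6 was at 7.44, 6.99, 7.30 and 7.22. Evx1 was at 6.50, 6.68, 6.41 and 6.57 with 98815_at, and at 6.30, 6.21, 6.50 and 6.10 with 98816_s_at. All but the Tbx6 value of 7.44 lie within the assigned range.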
